A study of Bos taurus with 6 samples.

Results

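Markers of macrophages, of T lymphocytes and of antigen presentation were followed in whole pieces of longissimus thoracis, a back muscle, from 6 castrated male Japanese Black cattle. Of 35 listed genes, 31 had at least 1 probe set whose platform annotation gave exactly that symbol, with 43 probe sets among 24016 tested. CD163, LYZ, MRC1 and CD74 had none and are not described. For each gene the probe set with the highest mean over the 6 arrays was used, as for all 9155 genes with a symbol of their own. Of the 31 genes, 9 have further probe sets, and in 6 of these all probe sets differed between the diets in one direction. This counts signs alone, however small the difference or low the level.

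Steers of both groups were 13 to 14 months old at the start, were fed for a daily gain of 1.0 kg over 7 months and ended at 20 to 21 months. The 3 supplemented steers received an oral dose of 296.8 IU vitamin A per kg of body weight each week, and were 600, 612 and 618 days old. The 3 restricted steers did not get this supplement, and were 589, 595 and 611 days old. Each array holds RNA of 1 steer. In pieces of whole muscle, fewer cells of a type and less RNA per cell cannot be told apart.

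Skeletal muscle holds resident macrophages in its connective tissue, which clear debris and take part in repair, and few lymphocytes unless it is inflamed. Macrophages are recognised by surface receptors, by the complement protein C1q that they secrete and by lysosomal enzymes. T cells are recognised by the chains of the CD3 complex, which pass on the signal of the T cell receptor, and by the coreceptors CD4 and CD8. Vitamin A acts on immune cells through retinoic acid, which binds nuclear receptors.

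The values the authors deposited are read as log2 from their size. They differ very little from steer to steer. Over all probe sets, the median distance between the highest and the lowest array was 0.677 millionths of a deposited log2 unit. Values are therefore given as each steer's deviation from the gene's mean over the 6 arrays, in millionths of a deposited log2 unit, and the difference between the diets, restricted minus supplemented, also in within-group standard deviations (SDs) of the same gene. The step behind the narrow spread is not given in the sources used here, so no difference is read as a fold change. Differences between the diets are set side by side between genes only in SDs, and ranges in millionths describe this table alone.

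None of the 31 genes passed the test for a difference between the diets. In limma with Benjamini-Hochberg adjustment over all probe sets, 0 of 31 had an adjusted p under 0.05, all 31 being at an adjusted p of 1, against 0.00416% of all probe sets, which is 1 probe set and no marker of these lists. At an unadjusted p under 0.05, 2 of 31 were found, PLBD1 on the lower and FCGRT on the higher side in restricted steers. This is 6.45% of the markers, beside 4.62% of all genes. The groups did not overlap in 4 markers, PLBD1 and AIF1 on the lower and FCGRT and S100A9 on the higher side, which is 12.9% beside 8.74% of all genes. PLBD1 and FCGRT were put among the markers with their differences known, so their own values are a description and both shares include that choice. Of the other 29 markers, 0 had an unadjusted p under 0.05 and 2, AIF1 and S100A9, did not overlap, which is 6.90% and below the share of all genes.

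Values were lower in restricted steers for 21 markers and higher for 10, with a median difference of -0.415 SDs. Over all genes 50.4% were lower, with a median of -0.00786 SDs. The split moved with the steers included. The number of markers on the higher side was 6 without supplemented steer 3, 15 without supplemented steer 2 and 14 without supplemented steer 1. It was also 6 in a fit that included age and 5 after a shift that gave all arrays one median. That shift lowers every difference by the same amount, so it could only turn markers to lower.

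**Figure D1:**
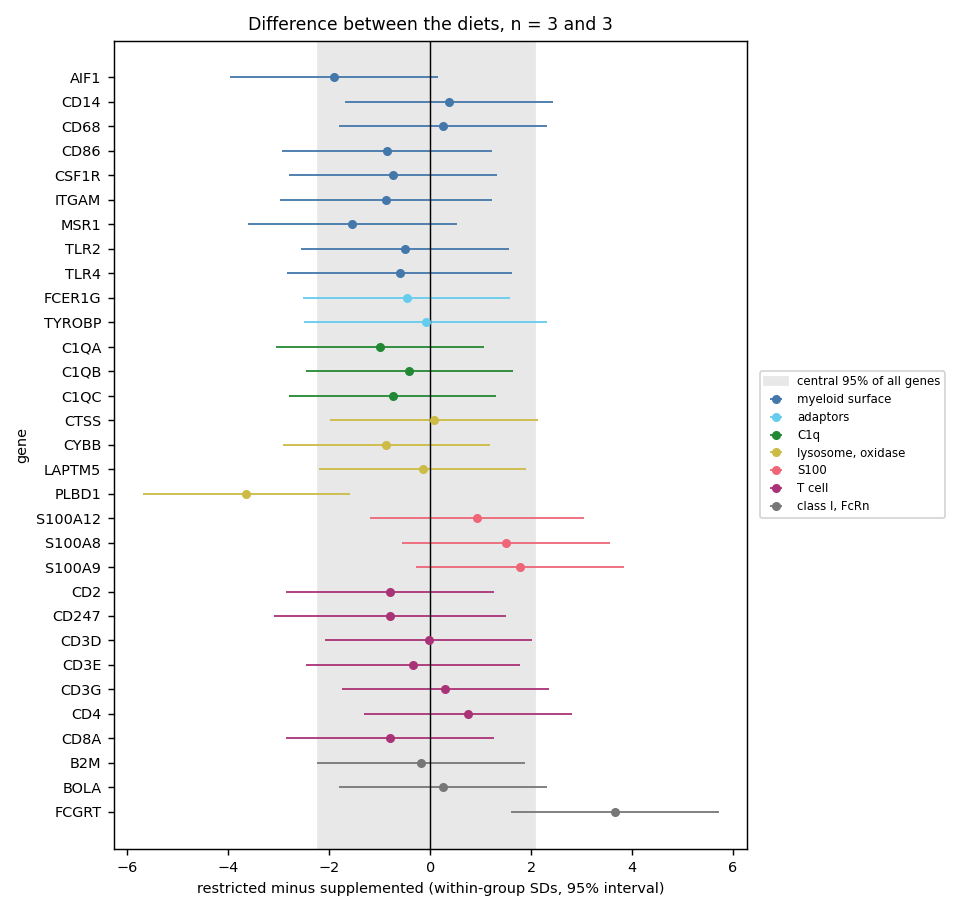
Difference between the diets for each marker gene, restricted minus supplemented, in within-group SDs with its 95% interval from limma (horizontal axis), coloured by role. The grey band holds the central 95% of the differences of all genes, from -2.22 to 2.07 SDs, and the points of PLBD1 at -3.64 and FCGRT at 3.66 are the only ones outside it.

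The label of the tissue was checked against muscle genes. Of 8 measured muscle genes, such as actin, creatine kinase and myosin genes, every one lay at or above percentile 99.7 of level among all probe sets. The markers lay lower, with a median at percentile 61.3, beside 67.6 for all genes. The median was at percentile 47.3 for T cell markers and 44.8 for macrophage surface markers. For ITGAM, an integrin chain of myeloid cells, and FCER1G, an adaptor of Fc receptors, the probe set lay among the lowest 25% of the array, at percentiles 0.471 and 17.6. These are near the array's lowest values, and 13 of the 31 lay below the median. The files give no detection call, so whether such a probe set measures its transcript was not tested. The highest markers were B2M at 99.5 and FCGRT at 95.1.

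The range over the 6 steers had a median of 1.88 millionths in the markers, beside 1.23 over all genes, and 19 of 31 markers ranged more than the median gene. It was under 10 millionths for 22 of 31, which is 71.0% beside 79.9% of all genes. BOLA, a class I histocompatibility gene, ranged over 15889.8 millionths and had the 24th widest range of the 24016 probe sets. PLBD1 had the 37th widest, at 8039.5 millionths. B2M (653), C1QA (272.4) and the lysosomal protease CTSS (168.8) were the other markers that ranged over more than 100 millionths.

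**Figure D2:**
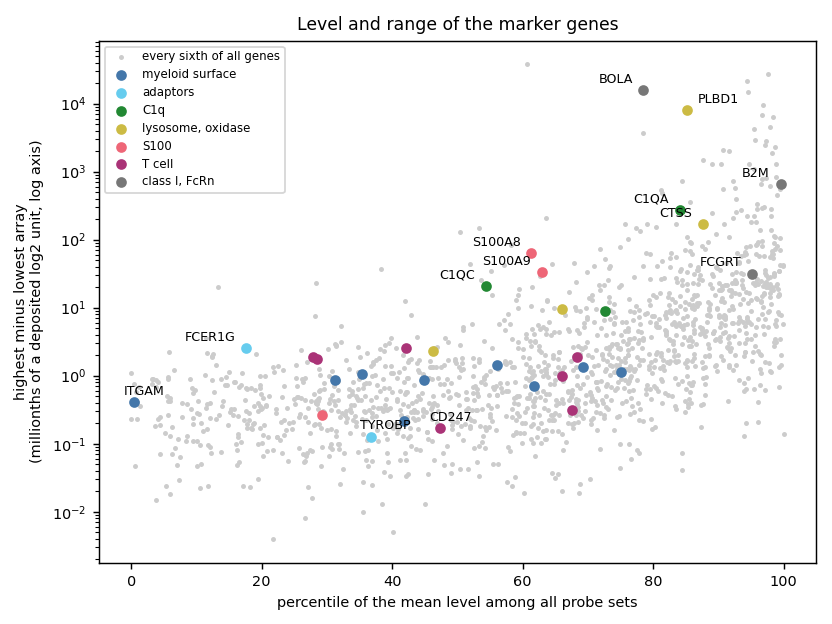
Range over the 6 arrays (vertical log axis, highest minus lowest array in millionths of a deposited log2 unit) against the percentile of the mean level (horizontal axis) for the 31 markers, coloured by role, and for every sixth of all genes in grey. BOLA and PLBD1 stand far above other genes of like level, while ITGAM lies at the lowest levels.

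PLBD1, a lysosomal phospholipase B-like protein found in granulocytes and monocytes, was lower in restricted steers. Supplemented steers 1, 2 and 3 deviated from the gene mean by 2921.5, 3553.1 and 1346.4 millionths, and restricted steers 1, 2 and 3 by -2072.7, -1262.0 and -4486.4 millionths. All supplemented steers lay above the mean and all restricted ones below it, with supplemented steer 3 and restricted steer 2 nearest to the other group. The group means were 2607.0 ± 1136.5 (SD, n = 3) and -2607.0 ± 1677.3 millionths (SD, n = 3). The difference was -5214.0 millionths with a 95% interval from -8155.7 to -2272.3, or -3.64 SDs (limma unadjusted p = 0.00692, adjusted p = 1). Over 16 alternatives it ran from -6434.0 to -4274.3 millionths. The unadjusted limma p ran from 0.000987, in a fit that grouped same-numbered steers, to 0.0278. With groups that do not overlap, most alternatives could not turn the direction of PLBD1, which was chosen with its difference known.

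The markers of myeloid cells that share the granule and lysosome role of PLBD1 overlapped between the diets. CTSS, the protease cathepsin S that trims the class II chaperone, deviated by 43.5, 25.5 and -78.3 millionths in supplemented steers 1, 2 and 3 and by 66.5, -102.4 and 45.2 millionths in restricted steers 1, 2 and 3. Supplemented steer 3 and restricted steer 2 were low and the other 4 high, and the difference was 0.0774 SDs. LAPTM5, a lysosomal membrane protein of leukocytes, differed by -0.151 SDs. CYBB, the catalytic subunit of the phagocyte NADPH oxidase, differed by -0.866 SDs, and its other probe set by 0.331 SDs.

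AIF1, a calcium-binding protein of macrophages also known as IBA1, was lower in restricted steers without overlap of the groups. Its deviations were 0.437, 0.333 and 0.269 millionths in supplemented steers 1, 2 and 3 and -0.138, -0.927 and 0.0243 millionths in restricted steers 1, 2 and 3. The supplemented steers lay close together, and restricted steer 2 was far below the others. The group means were 0.347 ± 0.0848 (SD, n = 3) and -0.347 ± 0.509 millionths (SD, n = 3). The difference was -0.693 millionths or -1.90 SDs, with an interval from -3.96 to 0.160 SDs (limma unadjusted p = 0.0633, adjusted p = 1). It was lower in each alternative that gave it a value, but with groups that do not overlap most of these could not turn it.

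The other macrophage surface markers overlapped between the diets. CD14, the coreceptor for bacterial lipopolysaccharide, deviated by -0.178, 0.258 and -0.415 millionths in supplemented and by 1.02, -0.387 and -0.294 millionths in restricted steers 1, 2 and 3. Only restricted steer 1 stood out, and the difference was 0.369 SDs with an interval from -1.69 to 2.43. The other probe set of CD14 was higher by 0.001 millionths, with a range of 0.009 millionths over the arrays. CD68, a lysosomal membrane glycoprotein used to stain macrophages, deviated by 0.457, -0.0113 and -0.589 millionths in supplemented and by 0.0147, 0.110 and 0.0197 millionths in restricted steers. The supplemented steers held both its highest and its lowest value, and the difference was 0.258 SDs.

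CSF1R, the receptor for the growth factor that keeps macrophages alive, differed by -0.729 SDs and the scavenger receptor MSR1 by -1.54 SDs. The costimulatory protein CD86 differed by -0.854 SDs, ITGAM by -0.875, and the pattern recognition receptors TLR2 and TLR4 by -0.50 and -0.601 SDs. Of the 9 measured surface markers 7 were lower, 0 of them at an unadjusted p under 0.05. The 3 probe sets of MSR1 did not run one way, since 1 was higher by 1.79 SDs. The signalling adaptors FCER1G and TYROBP, which couple receptors without a signalling tail of their own to tyrosine kinases, differed by -0.464 and -0.0896 SDs.

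The genes of C1q, the subunit that starts the classical complement pathway and is made of chains A, B and C, were set apart by 1 steer. C1QA deviated by 195.0, -28.6 and -25.4 millionths in supplemented and by -4.26, -77.4 and -59.3 millionths in restricted steers 1, 2 and 3. C1QB deviated by 5.59, -0.109 and -3.38 millionths in supplemented and by -0.663, -2.22 and 0.772 millionths in restricted steers. C1QC deviated by 14.6, -4.72 and -1.16 millionths in supplemented and by -6.09, -4.47 and 1.86 millionths in restricted steers. Supplemented steer 1 was highest for all 3 chains, with the diets mixed among the other 5 steers. It stood far above them for C1QA and C1QC. For C1QB the other 5 were spread from -3.38 to 0.772 millionths, beside 5.59 in supplemented steer 1.

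The difference between the diets was -0.994 SDs for C1QA, -0.415 for C1QB and -0.740 for C1QC. Without supplemented steer 1, C1QB and C1QC turned to 1.04 and 0.0350 millionths on the higher side and C1QA was at -20.0 in place of -94.0 millionths. The 3 genes are neighbours in the current cattle gene order of RefSeq, with C1QA next to C1QC and 1 other protein-coding gene between C1QC and C1QB.

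The S100 genes, calcium-binding proteins that neutrophils and monocytes hold in large amounts and release as alarm signals, were all on the higher side in restricted steers. S100A9 deviated by -7.14, -11.5 and -5.71 millionths in supplemented and by 22.2, -1.79 and 3.94 millionths in restricted steers 1, 2 and 3. The groups did not overlap, and restricted steer 1 was far above the rest. The group means were -8.11 ± 3.0 (SD, n = 3) and 8.11 ± 12.5 millionths (SD, n = 3). The difference was 16.2 millionths or 1.78 SDs, with an interval from -0.272 to 3.83 SDs (limma unadjusted p = 0.0749, adjusted p = 1). S100A8, its partner in the dimer calprotectin, deviated by -8.05, -12.5 and -28.0 millionths in supplemented and by 36.1, -16.6 and 29.1 millionths in restricted steers. Restricted steers 1 and 3 were high and restricted steer 2 lay among the supplemented ones, giving 1.5 SDs (unadjusted p = 0.116).

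S100A12 differed by 0.928 SDs and turned to lower, at -2.12 millionths, under the shift to one median. Restricted steers 1 and 3 were the highest 2 for S100A12 as well. Restricted steer 2 was the lowest restricted steer for all 3 genes, so leaving it out had to widen each difference. Without it the unadjusted limma p values were 0.00489 for S100A8, 0.0404 for S100A9 and 0.0320 for S100A12. No adjusted p was under 0.924. The share of all genes under 0.05 in that fit is not given here. With any other steer left out the unadjusted p ran from 0.161 to 0.276 for S100A8, from 0.0401 to 0.180 for S100A9 and from 0.259 to 0.581 for S100A12. The lowest of these, for S100A9, was found without restricted steer 1, where the difference was 9.18 in place of 16.2 millionths. The other probe set of S100A9 lay at percentile 15.5 of level and was higher by 1.30 SDs with overlap of the groups. S100A12 lies between S100A8 and S100A9 in the gene order. Of 9 measured genes on a list of neutrophil markers, 4 were higher and 5 lower in restricted steers, with a median difference of -0.0505 SDs and a median level at percentile 19.8. Among them the chemokine receptor CXCR1 differed by 2.18 SDs (unadjusted p = 0.0478), turning to lower with the same shift.

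**Figure D3:**
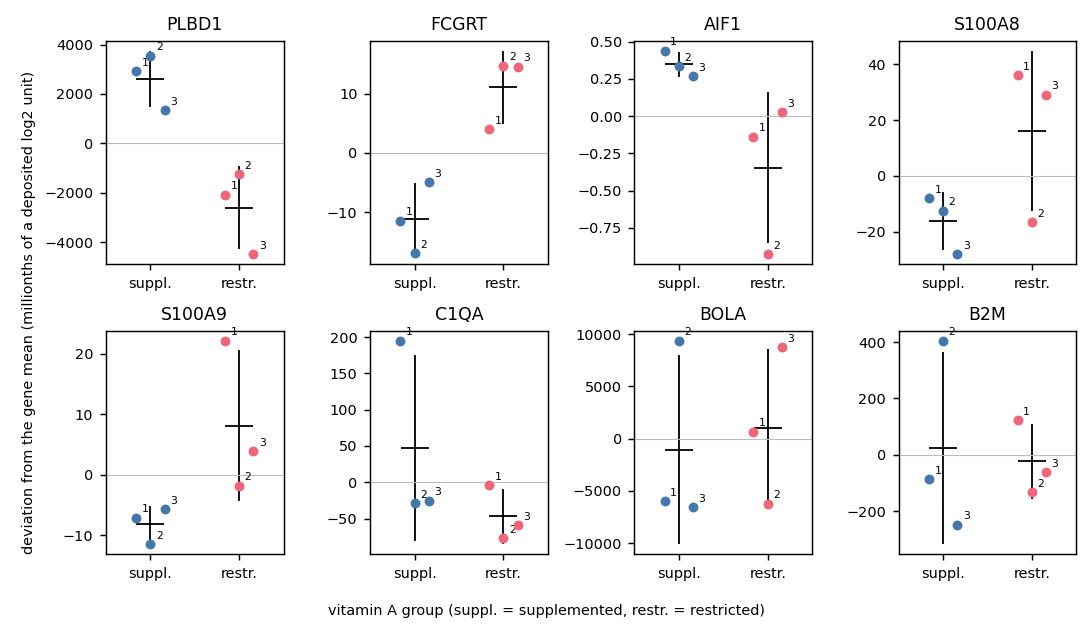
Deviation of each steer from the gene mean (vertical axis, millionths of a deposited log2 unit, with a scale of its own in each panel) for 8 markers in supplemented (suppl.) and restricted (restr.) steers. Points are steers with their number, the short line is the group mean and the bar 1 SD (n = 3), and PLBD1, FCGRT, AIF1 and S100A9 show no overlap while supplemented steer 1 alone lifts its group for C1QA.

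T cell markers overlapped between the diets in all 7 genes, 5 being lower and 2 higher with a median of -0.339 SDs. CD3D deviated by 0.737, 0.921 and -1.60 millionths in supplemented and by -1.03, 0.507 and 0.466 millionths in restricted steers 1, 2 and 3. Its lowest values were those of supplemented steer 3 and restricted steer 1, and the diets differed by -0.0313 SDs with an interval from -2.09 to 2.02. CD3E deviated by -0.0838, 0.200 and -0.0538 millionths in supplemented and by -0.108, 0.0342 and 0.0112 millionths in restricted steers. Supplemented steer 2 was the highest, and the difference was -0.339 SDs.

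CD4, the coreceptor of helper T cells that some macrophages also carry, deviated by 0.338, -0.200 and -0.563 millionths in supplemented and by 0.135, 0.418 and -0.128 millionths in restricted steers. Both diets had steers above and below the mean, and the difference was 0.757 SDs. A second probe set of CD4, at percentile 10.7 of level, was higher by 2.20 SDs without overlap (unadjusted p = 0.0453). CD8A, the coreceptor of cytotoxic T cells, deviated by 0.272, 0.859 and -0.328 millionths in supplemented and by -1.03, -0.242 and 0.467 millionths in restricted steers. Restricted steer 1 was lowest and the difference was -0.793 SDs. CD3G differed by 0.301, the zeta chain gene CD247 by -0.792 and the adhesion receptor CD2 by -0.791 SDs, and of the 3 probe sets of CD2 1 was higher.

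FCGRT, the neonatal Fc receptor that protects immunoglobulin G and albumin from breakdown and is made by endothelium as well as by macrophages, was higher in restricted steers. It deviated by -11.4, -16.9 and -4.94 millionths in supplemented and by 3.99, 14.7 and 14.5 millionths in restricted steers 1, 2 and 3. All supplemented steers lay below the mean and all restricted ones above it. The group means were -11.1 ± 5.97 (SD, n = 3) and 11.1 ± 6.13 millionths (SD, n = 3). The difference was 22.1 millionths with a 95% interval from 9.71 to 34.5, or 3.66 SDs (limma unadjusted p = 0.00679, adjusted p = 1). Over the 15 alternatives that gave it a value it ran from 19.2 to 25.9 millionths, with unadjusted limma p values from 0.00534 to 0.0271. Most of these could not turn the direction of FCGRT either, and it too was chosen with its difference known. Endothelial markers, measured in 6 genes, had a median difference of 0.441 SDs with 4 higher and 0 at an unadjusted p under 0.05, and their part in the value of FCGRT was not tested.

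B2M, the light chain of class I molecules and also of the neonatal Fc receptor, did not go with FCGRT. It deviated by -85.6, 404.6 and -248.3 millionths in supplemented and by 123.6, -132.2 and -62.1 millionths in restricted steers 1, 2 and 3. Supplemented steer 2 was far above the others and supplemented steer 3 lowest, so the diets differed by -0.183 SDs. All 3 probe sets of B2M were lower, by -0.183 to -0.546 SDs.

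BOLA deviated by -5984.4, 9359.0 and -6530.7 millionths in supplemented and by 659.9, -6234.3 and 8730.6 millionths in restricted steers. Supplemented steer 2 and restricted steer 3 were high, 3 steers lay close together at the low end, and the difference was 0.254 SDs with an interval from -1.80 to 2.31. Class I genes of cattle are near-identical copies that vary between animals. The gene record of this probe set is not among the current RefSeq records, which hold the other 30 genes, so which copies it measures was not tested.

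Single steers were the highest for many markers at once. Supplemented steer 1 was the highest of the 6 for 12 of 31 markers, 38.7% beside 14.8% of all genes. All 12 were among the 18 myeloid surface, adaptor, C1q, lysosome and oxidase markers. Supplemented steer 2 was highest for 9 markers, among them CD2, CD3D, CD3E, CD3G and CD8A of the T cell set as well as B2M and BOLA. Restricted steer 1 was highest for the 3 S100 genes. Supplemented steer 3 was lowest for 12 markers and highest for 0, whereas over all genes it was highest for 20.7%, more than any other steer. The ranges of most markers are smaller than the 8.88 millionths by which the array medians differ. After the shift to one median, supplemented steer 1 was highest for 3 markers, the C1q genes, supplemented steer 2 for 0 T cell markers and restricted steer 1 for 2 S100 genes. Quantile normalization, which left 15456 probe sets equal on all arrays, gave 1 C1q gene, 0 T cell markers and 0 S100 genes for these steers. The median over probe sets of an array's own deviations was at most 0.00817 millionths, and shifting the arrays by it left the counts at 12, 5 and 3.

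Markers of some other cells were high in supplemented steer 1 or restricted steer 1 as well. All 6 measured fibroblast genes, collagen genes and the proteoglycan genes DCN and LUM among them, were highest in supplemented steer 1. All 5 measured adipocyte genes were highest in restricted steer 1, as were the S100 genes. So were 4 of 6 genes of pericytes and smooth muscle and 3 of 6 endothelial genes. Over all genes, supplemented steer 1 was highest for 14.8% and restricted steer 1 for 16.2%. All 5 adipocyte genes were on the higher side in restricted steers, with a median of 0.971 SDs and overlap of the groups in all 5. After the shift to one median the fibroblast and adipocyte genes highest in these steers were 5 of 6 and 4 of 5. After quantile normalization they were 1 of 6 and 3 of 5. In the values as deposited, supplemented steer 2 was lowest for 4 of 6 fibroblast and 3 of 5 adipocyte genes. Genes of pericytes and smooth muscle were higher in 5 of 6 (median 0.947 SDs), those of red blood cells in 3 of 5 and those of skeletal muscle in 2 of 8. The part of these cells in the marker values was not tested.

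**Figure D4:**
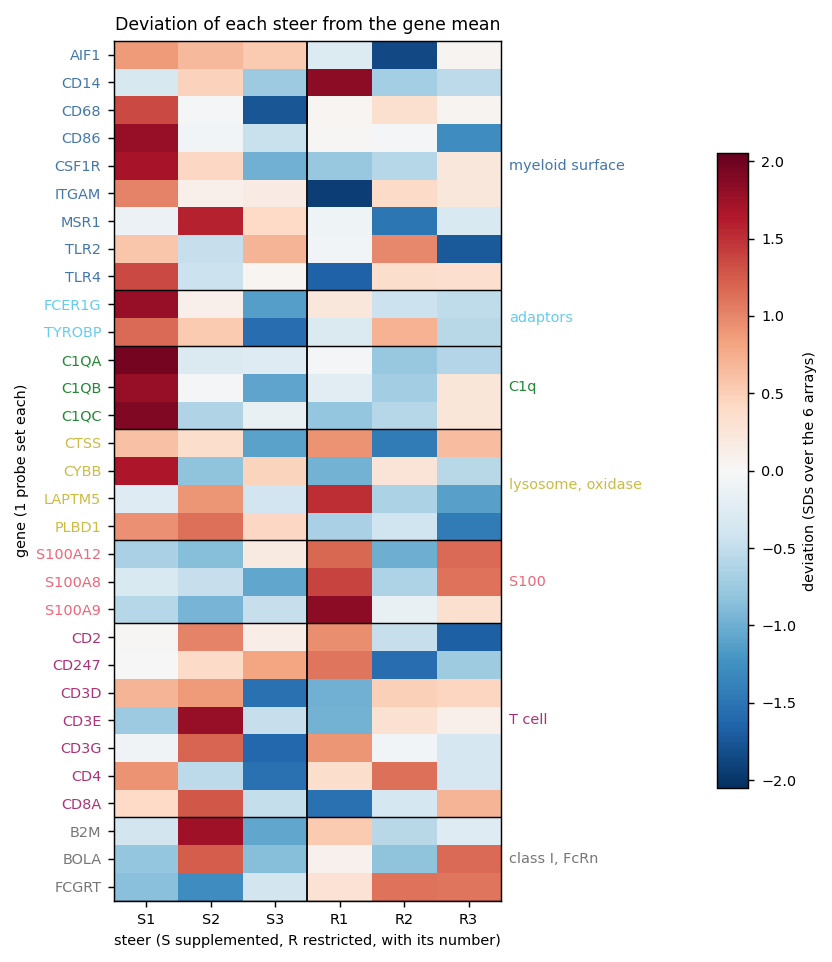
Deviation of each steer from the gene mean in SDs over the 6 arrays (colour, red above and blue below the mean) for the 31 markers in rows, grouped by role, with the 3 supplemented steers left of the vertical line and the 3 restricted ones right of it. Supplemented steer 1 is the reddest column for the C1q genes, supplemented steer 2 for most T cell genes and restricted steer 1 for the S100 genes.

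Genes whose proteins form a complex were compared across the 6 steers in 12 pairs of markers, with exact two-sided permutation tests and Benjamini-Hochberg adjustment over the pairs. No pair passed, the smallest adjusted p being 0.254 for Pearson's r and 0.200 for Spearman's rho. BOLA and B2M had the closest order of steers, with r = 0.722 (exact p = 0.0847) and rho = 0.943 (exact p = 0.0167), and r was 0.924 over 4 steers without the 2 farthest in BOLA. FCGRT and B2M had r = -0.453 and rho = -0.371 (exact p = 0.378 and 0.497), and r = 0.378 without the 2 farthest in FCGRT.

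The C1q pairs had r from 0.844 to 0.857 (exact p from 0.0653 to 0.128) but rho from 0.143 to 0.486. Without the 2 steers farthest from the median of the pair's first gene, r was -0.438 and -0.889 for the pairs with C1QA. It was 0.633 for C1QB with C1QC. The steers left out were supplemented steer 1 and restricted steer 2 for C1QA, but supplemented steers 1 and 3 for C1QB. With 4 steers left, and not the same ones, these values are not compared between pairs. S100A8 and S100A9 had r = 0.827 (exact p = 0.0264) and rho = 0.543 (exact p = 0.297), and r = -0.339 without the 2 farthest in S100A8. The CD3 chains CD3D, CD3E and CD3G had r from 0.408 to 0.582 with each other (exact p from 0.229 to 0.421). CD247 had r from -0.615 to 0.102 with them (exact p from 0.182 to 0.846).

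Related lists, given for context, held no gene past the adjusted threshold. Of 15 measured genes on a list of common leukocyte genes 9 were lower (median -0.149 SDs), ITGB2, the integrin partner of ITGAM, by -1.29 SDs. PTPRC, the leukocyte common antigen, and 6 others of the 15 were highest in supplemented steer 2, but after the shift to one median only 2 of the 15. Of 21 other macrophage genes 13 were higher (median 0.306 SDs), against the direction of the macrophage markers above. CYBA, the oxidase partner of CYBB, was higher by 1.52 SDs without overlap and turned to lower under the shift to one median. In this list 9 genes were highest in restricted steer 1 and 7 in supplemented steer 1, but 1 and 3 after the shift to one median.

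Of 18 other T and NK cell genes 10 were lower (median -0.156 SDs), with KLRD1 of NK cells at 1.25 SDs. Of 7 B and plasma cell genes 6 were lower (median -0.584 SDs), POU2AF1, a B cell coactivator, by -2.14 SDs without overlap (unadjusted p = 0.0458) at percentile 8.95 of level. Of 23 antigen presentation genes, CTSS among them, 16 were lower (median -0.253 SDs). The class II gene BOLA-DYB was higher by 2.32 SDs (unadjusted p = 0.0353) at percentile 3.76 of level. In this list supplemented steer 2 was highest for 8 genes, and for 4 after the shift to one median. They include the peptide transporter genes TAP1 and TAP2, the immunoproteasome genes PSMB8, PSMB9 and PSMB10 and the class II genes BOLA-DRA and BOLA-DRB3, beside B2M and BOLA above.

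Of 15 other complement genes 11 were higher (median 0.520 SDs), with complement factor D, CFD, which adipocytes secrete, at 6.35 SDs (unadjusted p = 0.000717). Of 15 genes of Toll-like receptor signalling 8 were higher (median 0.0523 SDs). MYD88, the adaptor that TLR2 and TLR4 signal through, was higher by 1.60 millionths or 5.31 SDs without overlap (limma unadjusted p = 0.00155, adjusted p = 1). It was lower under the shift to one median, at -0.627 millionths.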

How the data were processed

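Per the labels' protocols, total RNA was extracted with Trizol, purified on RNeasy columns, and 100 ng was labelled with biotin for an array read from the 3 prime end of transcripts. The authors deposited 1 table of values, read here as log2, for 24128 probe sets on 6 arrays; the sources used here do not give the log base or what was done to the scanner signal. The 112 control probe sets were left out. Values were multiplied by 1e+06 and fitted by lmFit and eBayes of limma 3.58.1 under R 4.3.3 (prior 0.483 and residual 4 degrees of freedom), adjusted over 24016 probe sets at 0.05. The fit was run on simulated data whose planted shifts, in SDs, were far larger than any difference named here. That run does not show what differences of the size seen here the test can find. With 3 arrays a diet, their number limits the precision.

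Symbols came from the platform annotation, which names 13292 tested probe sets with 1 gene, 86 with several and 10638 with none. Coordinates are not given, because no build is named. The markers and lists were chosen with earlier results of these data known. Steer by steer values are given for markers without overlap or with an unadjusted p under 0.05 and for those fixed by name, and of each immune list the gene with the smallest p is named. BOLA, S100A8, CTSS, and genes named for their highest steer, were chosen after their values were seen. Protein sequences were not used here. Same-numbered steers of the 2 groups are different animals. Alternatives covered normalization, filters, probe set choice, variance model, age, a replicate block and each steer left out.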

Additional observations from a re-analysis of the deposited data

How the results depend on the processing

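No marker passed the adjusted threshold in any of 16 settings, and 12 markers kept their direction wherever they had a value, PLBD1, FCGRT, AIF1, S100A8, S100A9 and C1QA among them. Not every setting could turn a direction. The filters, a trend in eBayes and the replicate block leave each difference as it is. Leaving out 1 steer cannot turn a marker whose groups do not overlap. The shift to one median could only turn a higher marker to lower. Differences are in millionths of a deposited log2 unit. When all arrays were shifted to one median, CD14 (-2.0), CD68 (-2.13), S100A12 (-2.12), CD3G (-2.01), CD4 (-1.94), CYBA (-1.96), CXCR1 (-2.0), KLRD1 (-2.16), BOLA-DYB (-1.75) and MYD88 (-0.627) turned to lower, since this shift adds the same amount to every probe set. The number of markers on the higher side was then 5 in place of 10, and markers highest in supplemented steer 1 or lowest in supplemented steer 3 were 3 each in place of 12 each. A shift by each array's median deviation, chosen after seeing the data, turned none of the 31 markers. It was at most 0.00817 millionths, so it could hardly turn a marker.

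With age as a covariate CD14 (-0.130), CD68 (-0.165), CTSS (-13.4), CD3G (-0.180) and CD4 (-0.0598) turned to lower and CD3E (0.0087) to higher, 6 markers were on the higher side and 0 probe sets were called in place of 1. Quantile normalization left 15456 probe sets equal on all arrays, which were not fitted. Of the 14 markers with a difference then, CSF1R (25.8), LAPTM5 (7.29) and CD8A (55.5) turned to higher, 6 were lower, 1 had an unadjusted p under 0.05, 22 probe sets were called, and supplemented steers 1 and 3 were highest and lowest for 1 marker each. With probe sets above the median level 18 markers were left, 11 lower, with 6 highest in supplemented steer 1 and 7 lowest in supplemented steer 3; above the first quartile 29 were left.

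With each steer left out in turn, differences ran from -0.229 to 0.472 for CD14, -0.175 to 0.348 for CD68, -0.0422 to 0.0213 for TYROBP, -1.05 to 0.235 for FCER1G, -3.44 to 1.04 for C1QB, -9.62 to 0.0350 for C1QC, -31.4 to 58.9 for CTSS, -3.53 to 1.27 for LAPTM5, -0.374 to 0.063 for TLR2, -0.0725 to 0.00267 for TLR4, -0.848 to 0.469 for CD3D, -0.094 to 0.048 for CD3E, -0.249 to 0.641 for CD3G, -183 to 143 for B2M and -1735.2 to 7309.7 for BOLA. Markers on the higher side ran from 6 to 15, called probe sets from 1 to 2 and markers at an unadjusted p under 0.05 from 2 to 6, the 6 without restricted steer 2. The share of all genes under 0.05 is given for the main fit only, at 4.62%. The 6 are therefore not read as a trait of the markers. Same-numbered steers of the 2 diets deviated together with r = 0.0151 to 0.0374, which cannot show whether they were matched or handled together. With the replicate block 0 probe sets were called in place of 1. All 31 marker differences were the same, as they must be with 1 steer of each number in each diet. The unadjusted limma p was then 0.000987 for PLBD1 and 0.0229 for FCGRT. Where a difference moved, the cause was not tested beyond these constructions.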
